A study of Drosophila melanogaster with 9 samples.

Results

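Rhodopsin 1 (Rh1) is the light receptor of the outer photoreceptors, and 8 genes for its opsin, its maturation and its chromophore were followed among the 13947 genes counted. They were chosen by symbol: the opsin gene ninaE, the chaperone genes ninaA and Cnx99A, and the chromophore genes ninaB, ninaD, ninaG, santa-maria and Pinta. Each symbol matched 1 FlyBase identifier, Pinta being written pinta in the table of symbols.

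Nuclear RNA came from 3 libraries, replicates 1, 2 and 3, of photoreceptors expressing an shRNA against the H3K36 methyltransferase Set2 (shSet2). They were taken from the heads of male flies 10 days after eclosion, at zeitgeber time 6, in a cycle of equal light and dark. The flies carried UAS-GFP-Msp300KASH (GFP on the nuclear membrane), rh1-GAL4 and the rosy allele ry[506] in a white mutant background. The driver acts from the end of pupal development. The shRNA transgene, UAS-siSet2 in the labels, came from 1 line, TRiP.HMJ02076, so an effect of that line cannot be told apart from an effect of Set2. RNA-seq libraries of control photoreceptors (an shRNA against mCherry) were not analysed here, and every value below describes shSet2 photoreceptors and no difference between conditions. Totals were 3657491, 3794547 and 4960498 counts in replicates 1, 2 and 3. Set2 itself had 313, 370 and 369 counts, and the size of its knockdown was not measured here. The series calls the libraries biological replicates, and how flies were pooled into each is not given in the sources used here.

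Rhodopsin is made of an opsin protein and a vitamin A-derived chromophore. Opsin is inserted into the membrane of the endoplasmic reticulum (ER), folded there with the help of chaperones and carried to the rhabdomere, the light-sensing membrane of the photoreceptor. Flies take up carotenoids from food, cut them into retinal and hydroxylate it, and opsin made without chromophore is not matured well. Many of these genes were found as nina mutants, in which neither inactivation nor afterpotential is seen in the electroretinogram. The Rh1-Gal4 driver is built on the promoter of ninaE, so the nuclei were tagged according to the activity of a gene that is described here.

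The opsin gene was far above the other members. ninaE (FBgn0002940, chromosome arm 3R, 19886255 to 19888206 in Release 6) was counted 27205, 30740 and 46839 times in replicates 1, 2 and 3. These were 0.744% (95% Wilson interval 0.735% to 0.753%), 0.810% (0.801% to 0.819%) and 0.944% (0.936% to 0.953%) of all counts, and the intervals did not overlap. Its level in CPM, counts per 1000000 counts of the library after scaling by edgeR's TMM factors, was 7371, 8132 and 9492, or 8332 ± 1074 (SD, n = 3). Replicate 3 was the highest library and replicate 1 the lowest, with 1.29-fold between them. Per kilobase of gene span, which allows genes of unequal length to be compared, its level was 4268 ± 550 CPM per kb. Of the 5758 genes that reached 10 counts in every library and had a known span, only Dcr-2 and sunz were higher on that scale. ninaE took 90.0% ± 3.33 (SD, n = 3) of the counts of the 8 members.

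Opsins of other cells were low beside it. Rh3, an opsin of R7 cells, was at 11.7 ± 0.764 CPM per kb and Rh6, an opsin of R8 cells, at 7.82 ± 1.17. The ratio of ninaE to Rh3 per kb was 313, 384 and 397 in the 3 libraries. Rh2, the opsin of the ocelli, was at 2.72 ± 0.394 CPM per kb, and Rh4 and Rh5 were at 1.17 ± 0.300 and 2.79 ± 1.07. Without the length Rh4 was above Rh5, with means of 11.73 and 4.691 CPM, and Rh3 was at 16.3 CPM. Rh7, an opsin also known from brain neurons, had 10, 5 and 9 counts and was the lowest of the 6 other opsin genes per kb. In nuclei pooled from many cells, fewer cells of a type and less RNA per cell cannot be told apart.

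**Figure D1:**
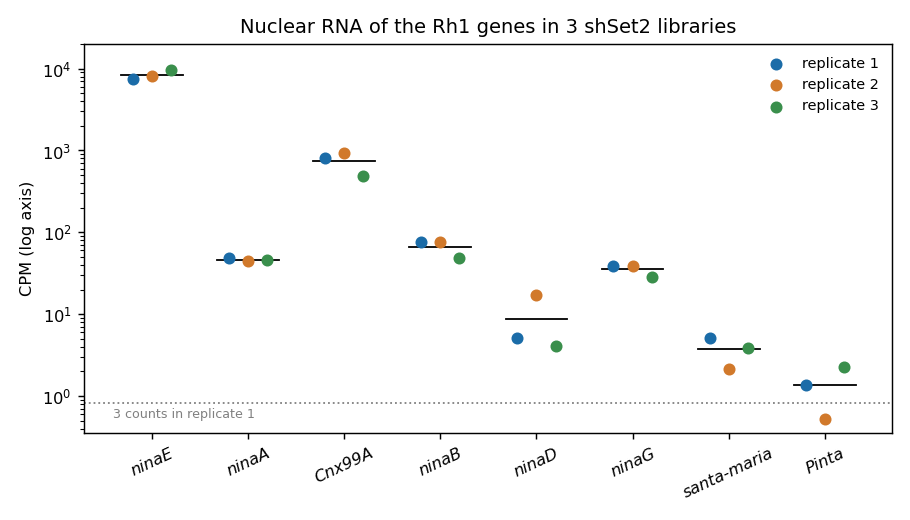
CPM of the 8 genes (log axis) in each of the 3 shSet2 libraries, with the mean as a black bar and a dotted line at the level of 3 counts in replicate 1. ninaE lies at 7371 to 9492 CPM, Cnx99A at 494 to 935, and only Pinta in replicate 2 lies under the dotted line.

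Both chaperone genes were expressed, and they differed in level and in spread. Cnx99A (FBgn0015622, 3R, 29315254 to 29319644) encodes a calnexin, a lectin chaperone of the ER that Rh1 needs for maturation. It had 3015, 3533 and 2438 counts, or 817, 935 and 494 CPM in replicates 1, 2 and 3. Replicate 3 was low although it was the deepest library and the one with the most ninaE. The mean was 748 ± 228 CPM (SD, n = 3), and the highest library was 1.89-fold above the lowest. Cnx99A therefore stood at 111, 115 and 52.0 counts per 1000 counts of ninaE.

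ninaA (FBgn0002936, 2L, 877302 to 878270) encodes a membrane-bound cyclophilin that accompanies Rh1 out of the ER. Its counts were 180, 167 and 226, and its levels of 48.8, 44.2 and 45.8 CPM lay within 1.10-fold of each other. This was the smallest spread of the 8 members, with a coefficient of variation of 5.04%, beside a median of 13.5% over all 5802 genes that reached 10 counts in every library. There were 6.62, 5.43 and 4.82 counts of ninaA per 1000 counts of ninaE. Per kb, ninaA was at 47.7 ± 2.40 CPM against 170 ± 52.0 for Cnx99A. The gene CG15824 covers 100% of the ninaA span and had a mean of 2.89 CPM. How reads shared by overlapping genes were counted is not given in the sources used here, so the level of ninaA is uncertain. PNUTS, at a mean of 412 CPM, lies 263 bases from the ninaA span. Whether reads from PNUTS enter the count of ninaA was not tested.

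Cnx99A stood out among the ER chaperones. Its level per kb was 120, 131 and 85.0 times that of its paralog Cnx14D. Cnx14D had 14, 15 and 16 counts. The calreticulin gene Calr, at 17.5 ± 1.79 CPM per kb, was the highest of the 7 other ER chaperone genes, and Cnx99A was 10.8, 10.9 and 7.06 times as high. Hsc70-3, the BiP homolog, was at 84.0, 72.0 and 53.9 CPM and Gp93, a homolog of GRP94, at 27.1, 22.5 and 20.3 CPM. On CPM without the length Hsc70-3 was the highest of the 7, with a mean of 69.95 against 37.88 for Calr. Of the 7 genes, 4 were lowest in replicate 3, as Cnx99A was, namely Hsc70-3, Gp93, Calr and Cnx14D. The other 3, Pdi, ERp60 and CaBP1, were lowest in replicate 2. Only Hsc70-3 of the 7 differed between libraries by more than read counting, in the test described below. That test called 25.1% of all genes tested. The share of all genes that were lowest in replicate 3 was not computed, so no movement shared with Cnx99A is shown. Pdi, a protein disulfide isomerase gene, was at 36.8, 36.2 and 41.5 CPM. Each of the 7 genes reached 10 counts in every library, and Pdi held the middle of the list at 7.49 CPM per kb.

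Among cyclophilin genes, ninaA was not the highest. CG7768 was at 68.5 ± 15.0 CPM per kb, and the ratio of ninaA to it was 0.981, 0.607 and 0.597. Moca-cyp, a large cyclophilin with a nuclear role, was at 32.5 ± 4.84 CPM per kb. Without the length it was the highest of these genes, with a mean of 157.3 CPM against 52.83 for CG7768 and 46.25 for ninaA. Cyp1 was at 4.80 ± 0.715 CPM per kb, which put ninaA 9.28, 11.3 and 9.53 times higher than Cyp1. CG2852, at 3.13 ± 0.673 CPM per kb, reached 10 counts in every library, while cyp33 and Cypl did not.

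Other genes for folding and transport of Rh1 covered a wide range, and 8 of 10 reached 10 counts in every library. didum, the myosin V that carries Rh1 vesicles to the rhabdomere, was the highest at 84.7 ± 0.521 CPM per kb, with 714, 722 and 717 CPM. Culd, which acts in endocytic traffic of rhodopsin, was at 298, 215 and 186 CPM. The GTPase gene Rab11, which serves post-Golgi transport of Rh1, was at 64.2, 55.0 and 53.9 CPM, and Rab6 was at 22.5, 22.2 and 25.7. Xport-A, an Rh1 and TRP chaperone of the secretory pathway, was listed at 0 in all 3 libraries. The partner gene Xport-B, with 2, 6 and 3 counts, covers 100% of the Xport-A span, so both counts are uncertain. In the ER membrane complex, which inserts Rh1 and other multipass proteins, 8 of 10 subunit genes reached that minimum. The 10 subunit genes ran from 1.72 CPM per kb for EMC2A to 14.1 for EMC1, with a median of 5.12, beside a median of 5.39 over all 5758 genes.

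The chromophore genes were all lower than ninaA per kb. ninaB, ninaG and ninaD reached 10 counts in every library, while santa-maria and Pinta, called sparse here, did not. Replicate 2 alone parted ninaD from santa-maria, with 64 and 8 counts. In replicates 1 and 3 ninaD had 19 and 20 counts, and santa-maria had 19 in each. ninaB (FBgn0002937, 3R, 13700565 to 13703164) encodes the oxygenase that cuts carotenoids and isomerises the product. It had 279, 290 and 237 counts, or 75.6, 76.7 and 48.0 CPM, with replicate 3 low. Its mean was 25.7 ± 6.25 CPM per kb. f-cup, at a mean of 76.0 CPM, and Adgf-D, at 1.75 CPM, together overlap 13.7% of the ninaB span, so the count of ninaB is uncertain there.

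ninaG (FBgn0037896, 3R, 11419376 to 11421693) encodes an oxidoreductase that acts on the hydroxylated chromophore. Its counts of 143, 145 and 140 corresponded to 38.7, 38.4 and 28.4 CPM. Replicate 3 was again the lowest library, and replicates 1 and 2 were close together. The mean per kb was 15.2 ± 2.54 CPM. No other gene overlaps ninaG, Cnx99A or ninaE in the reference.

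ninaD (FBgn0002939, 2L, 18081628 to 18083608) encodes a CD36-like scavenger receptor needed for carotenoid uptake, which is known above all from the gut. It had 19, 64 and 20 counts in replicates 1, 2 and 3, or 5.15, 16.9 and 4.05 CPM. Replicate 2 alone was high, 4.18-fold above replicate 3, and the mean of 8.71 ± 7.14 CPM describes none of the libraries. The start of the span lies 320 bases from Arr1, an arrestin gene at 1940, 1883 and 2148 CPM. Arr1 was not high in replicate 2. Whether reads from Arr1 enter the count of ninaD was not tested.

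santa-maria (FBgn0025697, 2L, 7445355 to 7451244), the second scavenger receptor of the pathway, has been placed by genetic work in neurons and glia outside the retina. It had 19, 8 and 19 counts. Its levels were 5.15, 2.12 and 3.85 CPM, and with unscaled totals the 95% Wilson intervals of 3.33 to 8.11, 1.07 to 4.16 and 2.45 to 5.98 CPM overlapped. CG5973, at 6.34 CPM, overlaps 8.96% of its span. Pinta (FBgn0038966, 3R, 22423316 to 22424929) encodes a retinoid-binding protein of the retinal pigment cells. It had 5, 2 and 11 counts, and the 2 counts of replicate 2 lay under the floor of 3 counts used here. The gene mats, at a mean of 15 CPM, lies 13 bases from the Pinta span. Whether reads from mats enter the count of Pinta was not tested. At this depth no difference between libraries was detectable for santa-maria or Pinta. Intervals and floors cover counting error only.

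Several genes of the same families or of retinoid handling stood above the sparse chromophore genes. In the CD36 family, crq, a phagocytosis receptor of hemocytes, was the highest of 7 genes at 22.7 ± 1.04 CPM per kb, against 4.40 ± 3.60 for ninaD and 0.629 ± 0.258 for santa-maria. emp and pes followed at 1.31 ± 0.299 and 1.02 ± 0.256, and Snmp1 and Snmp2, proteins of chemosensory organs, were at 0.554 ± 0.370 and 0.0779 ± 0.0527. Pdh, a retinol dehydrogenase of the retinal pigment cells, was at 38.5, 22.2 and 36.5 CPM, and Pdh was at 30.4 ± 8.32 CPM per kb against 0.849 ± 0.527 for Pinta. rdhB, the other pigment cell dehydrogenase, was at 0.741 ± 0.156 CPM per kb. Fatp1, a fatty acid transport protein that affects Rh1 levels, was at 18.7 ± 2.31 CPM per kb.

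Per kb, the members followed the order ninaE, Cnx99A, ninaA, ninaB, ninaG, ninaD, Pinta and santa-maria. The ranges over the 3 libraries were apart for 6 of the 7 neighbouring pairs. Pinta and santa-maria overlapped, and their order lay within the spread. The nearest values of ninaB and ninaG were 18.5 and 16.7 CPM per kb, and those of ninaD and Pinta were 2.05 and 1.38. ninaE was 25-fold above Cnx99A and Cnx99A 3.57-fold above ninaA. On CPM without the length, ninaB stood above ninaA and santa-maria above Pinta. The reads include introns, and gene span counts introns that spliced RNA lacks, so levels of intron-rich genes are understated on this scale.

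Marker genes of 7 cell types were used to ask which members had the level of photoreceptor genes. No library of other head cells was analysed here, so enrichment in photoreceptors was not measured and no member can be assigned to a cell type from these values. The 18 photoreceptor markers, genes of the phototransduction cascade and the rhabdomere, ranged from 41.4 CPM per kb for Galphaq to 1624 for trp, with a median of 312. The 30 markers of glia, pigment and cone cells, other neurons, fat body, muscle and hemocytes ranged from 0 for Fbp1 to 39.6 for apolpp, with a median of 1.15. The photoreceptor list and the others did not overlap in mean level per kb. The gap was smaller than the spread between libraries, Galphaq being at 41.4 ± 4.64 (SD, n = 3) and apolpp at 39.6 ± 7.30. On CPM without the length the lists overlapped, apolpp being at 645.6 and Cpn, the lowest photoreceptor marker on that scale, at 405.9. The highest genes of the remaining lists were Pdh of pigment and cone cells at 30.4 and Eaat1 of glia at 8.97 CPM per kb. For other neurons the highest was VGlut at 3.70, for muscle Mlc2 at 1.85 and for hemocytes Hml at 1.46 CPM per kb.

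Per kb, ninaE was above all 18 photoreceptor markers, 2.50, 2.42 and 2.96 times as high as trp per kb. Cnx99A was above 7 of the 18 and ninaA above 2, Galphaq and eys. ninaE, Cnx99A and ninaA were the 3 members above all 30 markers of other cells. These places compare means, and the ranges of markers over the libraries were not compared. ninaA was at 47.7 ± 2.40 CPM per kb (SD, n = 3). Close to it were Galphaq at 41.4 ± 4.64, eys at 42.2 ± 3.05 and apolpp at 39.6 ± 7.30. ninaB and ninaG were under every photoreceptor marker and above 28 of the 30 others, the exceptions being apolpp of the fat body and Pdh of the pigment cells. ninaD was under all 18 and above 24 of the 30, and without replicate 2, its high library, it was above 20. ninaB, ninaG, ninaD, Pinta and santa-maria all lay inside the range of the markers of other cells. Pinta and santa-maria were under all 18 and above 12 and 8 of the 30. These places depended on the length. On CPM without it, a scale added after the data were seen, ninaE was above 13 of the 18 photoreceptor markers, Cnx99A above 2 and ninaA above none. ninaE and Cnx99A were still above all 30 markers of other cells on CPM, whereas ninaA, at 46.2 CPM, was under apolpp at 645.6, Eaat1 at 75.0 and Rab32 (the pigment granule gene ltd) at 58.9. Without the length ninaB was above 28 of the 30, ninaG above 24, ninaD above 18, santa-maria above 11 and Pinta above 5.

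**Figure D2:**
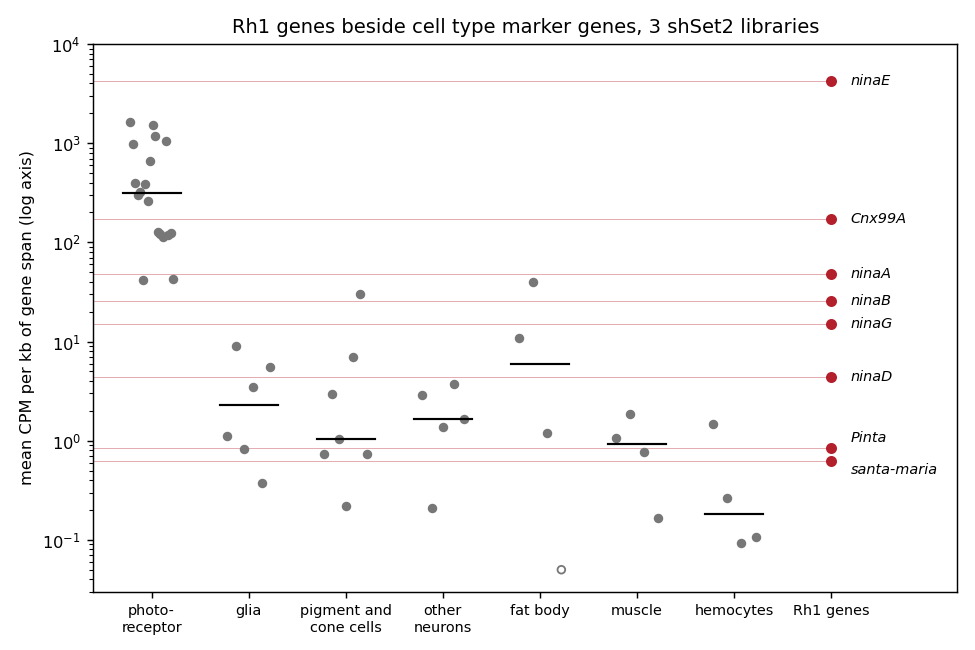
Mean CPM per kb of gene span over 3 shSet2 libraries (log axis) for each marker gene (grey points, black bar at the median of the list) and for the 8 Rh1 genes (red, with a line across). The open circle at the bottom is Fbp1, which had no count. On this scale ninaE, Cnx99A and ninaA lie above every marker of other cells. The chromophore genes ninaB, ninaG, ninaD, Pinta and santa-maria lie within the range of those markers. On CPM without the length, ninaA lies under apolpp, Eaat1 and Rab32.

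Markers of the cells in which the sparse genes are known were present at unequal levels. repo, the glial transcription factor, had 15, 16 and 15 counts, and 5 of 6 glial genes reached 10 counts in every library. Their summed level was 156, 127 and 111 CPM in replicates 1, 2 and 3. Eaat1 was the highest of the glial genes, at 85.1, 75.9 and 64.0 CPM. For pigment and cone cells 5 of 7 genes passed and the sums were 127, 89.4 and 103 CPM. Most of this was Rab32, at 69.1, 55.0 and 52.7 CPM, and Pdh, at 38.5, 22.2 and 36.5 CPM. Crys, a lens protein gene, had 9 counts in each library. For other neurons 5 of 5 passed, with sums of 168, 119 and 126 CPM. The fat body list had sums of 788, 644 and 591 CPM, and 2 of its 4 genes passed. These sums were mostly apolpp, at 776, 618 and 543 CPM. Lsp2 went the other way, at 10.0, 25.4 and 44.8 CPM. Fbp1 had no count, and the gene named to had 6, 1 and 17 counts. Muscle genes summed to 59.1, 21.7 and 24.7 CPM, with 3 of 4 passing. Hemocyte genes summed to 22.8, 18.5 and 24.1 CPM, with 1 of 4 passing, and He and eater were near 0. The part of these cells in the counts of santa-maria and Pinta was not tested. The summed level of the 18 photoreceptor genes was 99570, 100700 and 96040 CPM.

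To ask which members differed between replicate libraries by more than read counting, each gene's 3 counts were set against the scaled library sizes in a chi-square test, adjusted by Benjamini-Hochberg over all genes tested. It compares these libraries and not conditions. Of 5802 genes, 1454 were called at an adjusted p of at most 0.05 (25.1%). Among the members 5 of the 6 tested were called, namely ninaE, Cnx99A, ninaB, ninaD and ninaG. A call depends on depth as well as on spread, and all 18 photoreceptor markers were called too. The statistic per degree of freedom was 594 for ninaE, 318 for Cnx99A, 24.5 for ninaD, 18.1 for ninaB, 4.47 for ninaG and 0.440 for ninaA. ninaE and Cnx99A remained called with each replicate left out. The call of ninaD was lost without replicate 2 and that of ninaB without replicate 3. The call of ninaG was lost with any replicate left out, with DESeq2's size factors and with a count minimum of 1.

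The biological coefficient of variation (BCV) is edgeR's estimate of the spread beyond counting noise. It was 0.132 over all genes. Values of single genes are tagwise estimates, which edgeR draws toward the trend at their level, and are not a gene's own spread alone. For ninaE the tagwise BCV was 0.110 where the trend at its level was 0.105, and for ninaA it was 0.122 against 0.138. The statistic of ninaA above was 0.440, so its BCV does not show that ninaA varied beyond counting. Cnx99A was at 0.170 against 0.110 and ninaB at 0.161 against 0.133. For ninaD the value was 0.358 against 0.180, and for ninaG it was 0.143 against 0.140. Cnx99A and ninaD were thus the members farthest above the trend.

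**Figure D3:**
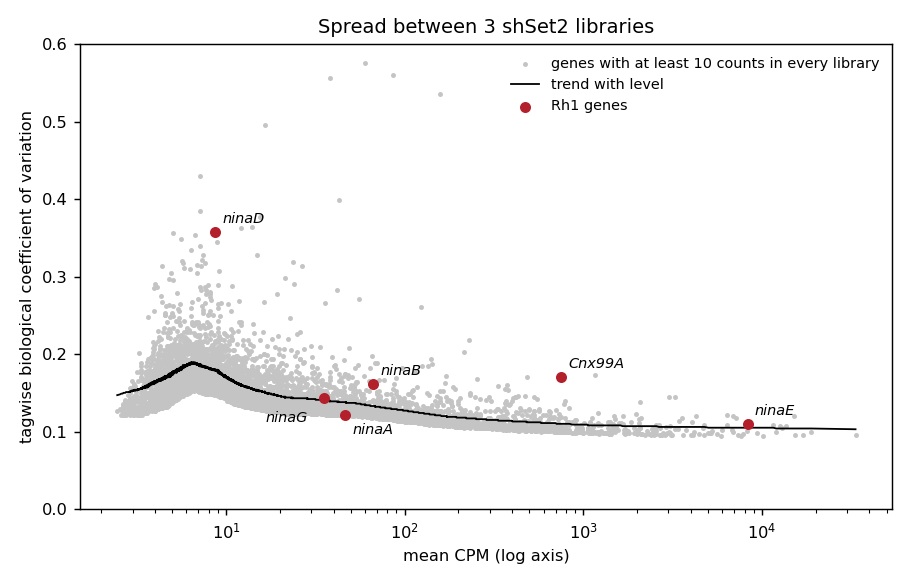
Tagwise BCV between the 3 shSet2 libraries against mean CPM (log axis) for 5802 genes (grey), with the trend (black line) and the 6 Rh1 genes tested (red). ninaD at 0.358 and Cnx99A at 0.170 lie above the trend, and ninaE at 0.110 lies near it.

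The members differed in which library was high or low. In replicate 3, ninaE lay 0.20 above its mean over the 3 libraries on the log2(CPM + 1) scale, whereas Cnx99A, ninaB and ninaG had deviations of -0.55, -0.44 and -0.29. These 3 genes had positive deviations in replicates 1 and 2, of 0.18 and 0.37 for Cnx99A, 0.21 and 0.23 for ninaB and 0.15 and 0.14 for ninaG. In replicate 2, ninaD deviated by 1.12. ninaA deviated by 0.08, -0.06 and -0.01 in replicates 1, 2 and 3. Genes outside the members also moved in replicate 3, such as the photoreceptor markers Galphaq, by 0.18, and Cpn, by -0.35. The share of all genes with such deviations was not computed. With 3 libraries no correlation between members was computed.

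**Figure D4:**
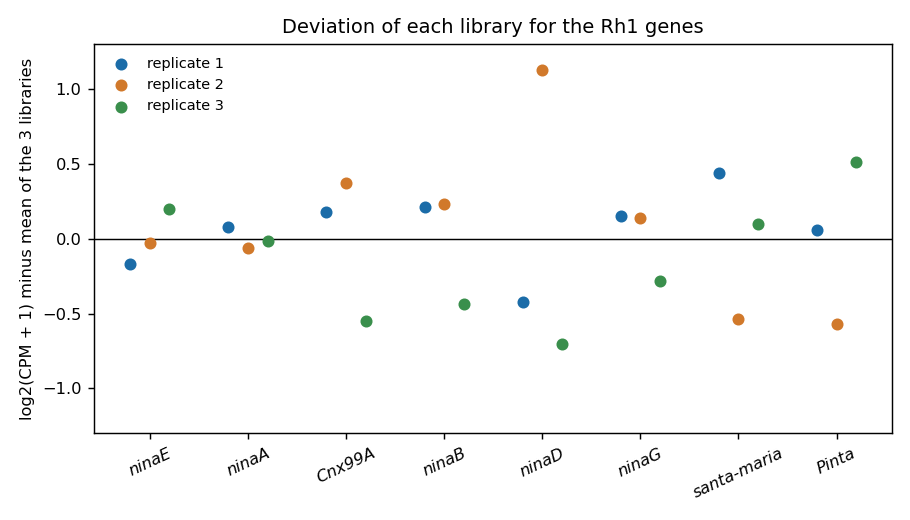
Deviation of each library from the mean of the 3 shSet2 libraries, in log2(CPM + 1), for the 8 Rh1 genes. Replicate 3 is the highest for ninaE and the lowest for Cnx99A, ninaB, ninaD and ninaG, and replicate 2 is the highest for ninaD at 1.12.

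The genes nearest to each member were found by the root mean square distance of log2(CPM + 1) over the 3 libraries, among 5801 other genes. For ninaE they were ninaC, a myosin III of the rhabdomere, at a distance of 0.164 and dysc at 0.173, and 3 genes lay within 0.2. For ninaA they were Pi3K21B at 0.023 and Hs3st-A at 0.031, and 141 genes lay within 0.2, so the likeness is common at that level. Cnx99A had Ktch at 0.197 and the clock gene cwo at 0.204. For ninaB the nearest were CG2111 at 0.052 and CG2765 at 0.094, and for ninaG they were HisRS at 0.023 and betaTub56D at 0.033. ninaD had no gene within 0.2, and CG14417 and CG11342 were nearest at 0.427 and 0.448. The measure uses level and 3 libraries alone.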

How the data were processed

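RNA of tagged photoreceptor nuclei, enriched with an antibody, was sequenced in 3 shSet2 libraries, each from 10 ng of RNA. The authors deposited whole-number read counts per gene without normalization. The submitters' processing notes name Trimmomatic, STAR, Bowtie2, SAMtools, deepTools and DESeq2 and the builds dm6 and BDGP6, without roles. The counting tool and the strand setting are not given in the sources used here. The table holds 13947 genes, 1 blank row that was left out, and 0 columns of other samples.

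Symbols were matched for 13884 identifiers, and 13871 genes had a span in the RefSeq table of Release 6 plus ISO1 MT. That table gives no exon lengths, so levels per kb use gene span in place of the exon length that was planned. No sequences were used here. CPM were computed on totals scaled by TMM factors from genes with at least 10 counts in every library (edgeR 4.0.16, R 4.3.3, DESeq2 1.42.0 for its size factors). A floor of 3 counts equals 0.813, 0.794 and 0.608 CPM in replicates 1, 2 and 3. The replicate test, a chi-square with 2 degrees of freedom, used scipy 1.17.1 in Python 3.11.15. Shares of counts have 95% Wilson intervals.

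The members and lists were chosen with earlier results of these data known. Named genes are the members, their paralogs, the highest, middle and lowest genes of the lists and the 2 nearest genes of each member. Hsc70-3, Gp93, Culd, Rab6, Rab11, Arr1, PNUTS and mats were named after their values were seen, and middle or lowest genes of some lists are not printed. ERp60 and CaBP1 were named to complete a count. Alternatives were DESeq2's size factors, unscaled totals, count minimums of 1 and 30, a pseudocount of 0.1, no length and each replicate left out. The test and the dispersion estimate were checked on simulated counts.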

Additional observations from a re-analysis of the deposited data

How the results depend on the processing

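No paired analysis was possible because only shSet2 RNA-seq libraries were analysed here, so no groups were compared. The longest transcript in place of gene span was not run, because no transcript lengths were used here. With a replicate left out, the number of genes called different between libraries was 532 to 1234, against 1454 with all 3, and the number of members called was 3 to 4, against 5. Fewer libraries are compared in these fits. The lowest number, 532, came without replicate 3, and 864 came without replicate 1. The BCV was 0.109 to 0.161 with a replicate left out, against 0.132, and the highest value came without replicate 2. The cause was not tested. Without replicate 2, 7 members reached 10 counts in every library, against 6, with santa-maria added. With no length correction, 4 neighbouring pairs of members were apart, against 6 per kb. The number of members above all markers of other cells was 3 per kb under each scaling and with each replicate left out, and 2 on CPM without the length, an alternative chosen after seeing the data, where ninaA was under 3 of them. Cnx99A had 81.4 to 113 counts per 1000 counts of ninaE with a replicate left out, against 92.6. All 12 nearest genes were shared with a pseudocount of 0.1. None of 16 changes of scaling moved a member's mean CPM by more than 1 SD. Without replicate 2 the mean of ninaD was 4.61 CPM, against 8.71, and that of santa-maria was 4.505, against 3.705. Depth limits santa-maria and Pinta, with 46 and 18 counts in all.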
